A study of Mus musculus with 9 samples.

Results

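Immediate early genes are transcribed soon after a cell is stimulated, from transcription factors already present and without new protein synthesis. 10 of them were chosen by name, with earlier results of these data known. They were looked up in an expression table of embryonic mouse cortex: Fos, Fosb, Jun, Junb, Egr1, Egr3, Nr4a1, Ier2, Arc and Btg1. 7 of the 10 were among the 14670 genes of the table, each listed once: Jun, Junb, Egr1, Nr4a1, Ier2, Arc and Btg1. Fos, Fosb and Egr3 were not listed in the table used here, so their expression was not analysed.

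The study asked how the cortex differs when embryos lack Fzd3, a Frizzled receptor for Wnt proteins, or Celsr3, an atypical cadherin that acts with it in planar cell polarity. RNA from dissected cortex at embryonic day 16.5 was sequenced in 9 libraries, 3 per genotype. The groups were Control +/+ (replicates 1, 2 and 3), Fzd3 -/- mutants (replicates 1, 2 and 3) and Celsr3 -/- mutants (replicates 1, 2 and 4), and no treatment is named. According to the methods, both mutant lines were kept on a background that mixes C57Bl/6 with CD1, and the control littermates could be wild type or heterozygous, whereas the labels call them +/+. A difference in genetic background between the groups cannot be told apart from genotype. The labels name Trizol for the RNA and the methods name an RNeasy kit.

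In neurons, calcium entry and growth factors activate kinases of the ERK and CaMK families, which phosphorylate CREB and the partners of SRF at the promoters of these genes. The products fall into transcription factors (Jun and Junb in the AP-1 complex, Egr1, Nr4a1 and the regulator Ier2) and effectors (Arc at synapses, Btg1 in growth control). They also respond to growth factors in cells that are not neurons, such as endothelium.

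Values are CPM, the reads of a gene scaled to the size of its library. The smallest steps of each library gave an estimate of the worth of 1 read, on which all reads and counting intervals below rest, and with it a depth of 39857305 to 69600589 reads over the listed genes. Over the 9 libraries the mean was 84.1 CPM for Btg1, 51.6 for Jun, 5.15 for Ier2, 3.87 for Nr4a1, 2.45 for Egr1, 1.15 for Junb and 1.07 for Arc. Nearly all listed genes, 14665 of 14670, were above 1 CPM in at least 3 libraries. Arc met that level only in the 3 controls and in Celsr3 replicate 4, so its listing leaned on the group where it was highest, and Junb met it in 7 libraries. A gene listed through its controls alone tends to be higher there, so the difference of Arc from the controls is described below and not counted as support. The lowest and highest numbers of reads were 39 and 102 for Arc, 50 and 88 for Junb, and 60 and 229 for Egr1.

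The mutated genes were read first, as a check of the labels. Celsr3 measured 196, 243 and 215 CPM in the controls, 253, 213 and 255 CPM in the Fzd3 mutants, and 122, 139 and 119 CPM in the Celsr3 mutants. All 3 Celsr3 mutants were below the other 6 libraries, and Celsr3 mRNA fell by 41.8% against the controls (log2 fold change -0.78, SE 0.09, limma adjusted p = 0.0018). This call was lost with the replicate number as a block (limma adjusted p = 0.0699) and in a linear model with no moderation of the variances (adjusted p = 0.177). The log2 fold change was -0.71 with the block and -0.78 with no moderation. Fzd3 measured 57.9, 67.7 and 46.9 CPM in the controls, 46.6, 39.8 and 59.6 CPM in the Fzd3 mutants, and 52.1, 61.1 and 54.8 CPM in the Celsr3 mutants. The Fzd3 mutants overlapped the controls in Fzd3 mRNA (log2 fold change -0.24, limma adjusted p = 0.24). With 1 library left out this value ran from -0.11 without Fzd3 replicate 2 (limma adjusted p = 0.633), and -0.12 without Control replicate 2 (0.618), to -0.40 without Fzd3 replicate 3 (0.0457), the only such fit to pass the threshold. By the study's text the mutant allele lacks exon 3 of Fzd3. A total over all exons need not show the loss of 1 exon and the table has no value per exon, so the genotype of these libraries rests on their labels.

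A single library stood apart in its cell type markers. Celsr3 replicate 4 had a summed level of 238 CPM for the 7 listed genes of mural cells and meninges, where the other 8 libraries had 57.5 to 79.0 CPM. Among these 7 genes the collagen genes Col3a1, at 87.6 CPM, and Col1a2, at 49.4 CPM, were the most different. Results that involve the Celsr3 mutants are therefore also given without it where it matters.

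Across the 9 libraries the 7 genes did not move as a block. Egr1 was higher and Ier2 lower in the Fzd3 mutants than in both other genotypes. Btg1 was somewhat lower in the Fzd3 mutants than in the controls, a call lost under several alternatives. The mean of Jun was highest in the Celsr3 mutants, but Jun passed the threshold in no comparison. Arc was below the controls in every mutant library, but passed only in the Fzd3 mutants, where its p cannot be read at face value. Junb and Nr4a1 overlapped between all 3 genotypes.

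**Figure D1:**
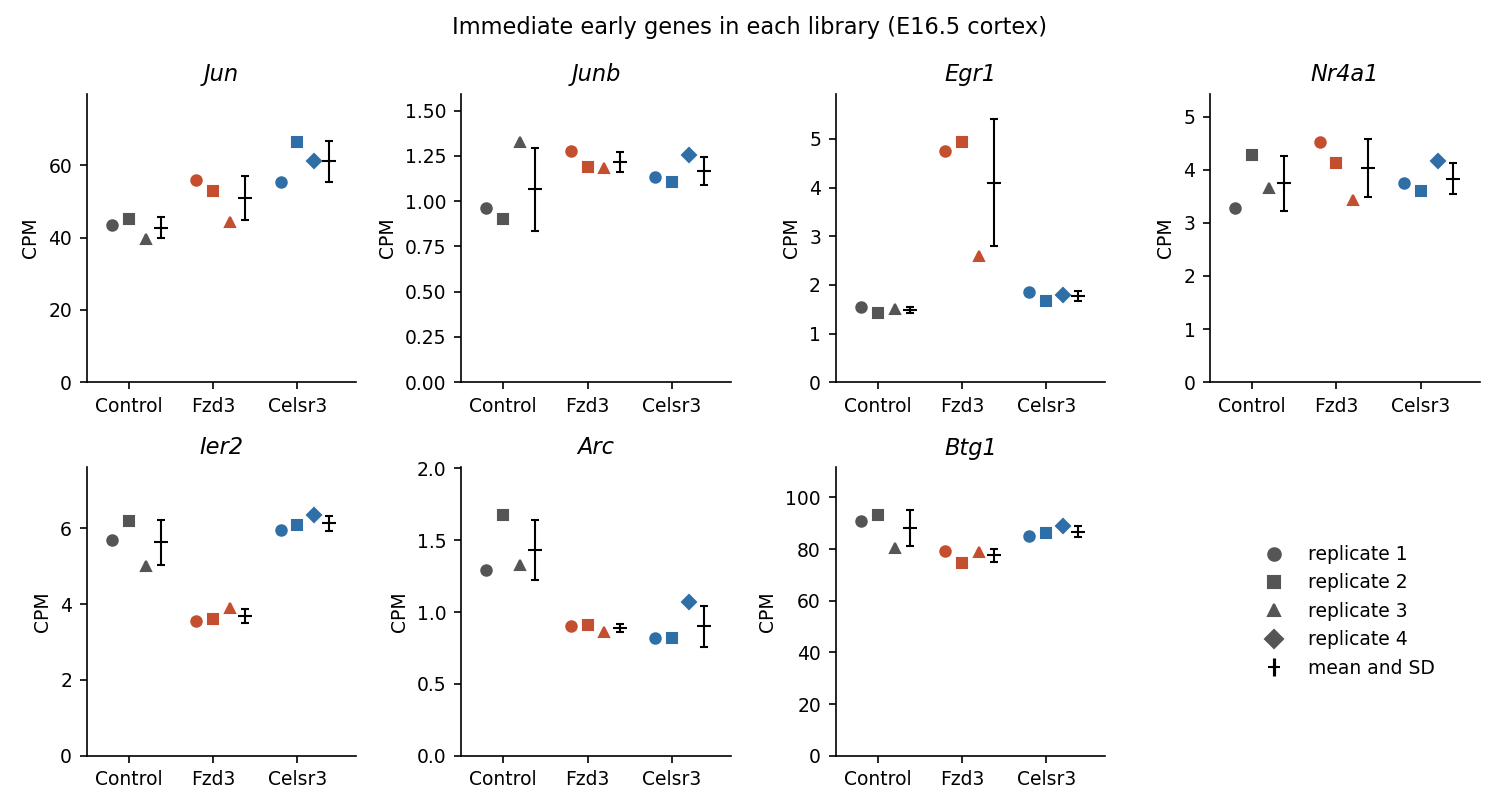
CPM of the 7 listed immediate early genes in each of the 9 libraries, with a vertical axis for each gene that starts at 0; shapes give the replicate number, and bars the mean and SD of 3 libraries. The 3 Fzd3 mutants span 2.60 to 4.95 CPM for Egr1, and the other 6 libraries reach 1.85 CPM at most.

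Egr1, a zinc finger transcription factor that binds GC-rich sites, is encoded at chr18:34859823-34864984 on the plus strand (GRCm38). Egr1 measured 1.54, 1.41 and 1.505 CPM in the controls. It measured 4.76, 4.95 and 2.60 CPM in Fzd3 replicates 1, 2 and 3, and 1.85, 1.67 and 1.79 CPM in Celsr3 replicates 1, 2 and 4. The 3 Fzd3 mutants were above all other libraries, with replicate 3 well below its companions, while controls and Celsr3 mutants each stayed within a narrow range. The 95% counting interval (exact Poisson, counting error only) of Fzd3 replicate 3 ran from 2.18 to 3.07 CPM, below those of replicates 1 (4.13 to 5.46) and 2 (4.33 to 5.63).

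Egr1 rose 2.76-fold in the Fzd3 mutants, from a mean of 1.49 ± 0.0666 CPM (SD, n = 3) in the controls to 4.10 ± 1.31 CPM. The log2 fold change was 1.17 (SE 0.20, 95% CI 0.74 to 1.60, limma adjusted p = 0.00136). With any library left out the call was kept, with log2 fold changes from 1.02 to 1.43. Fold changes are on the scale of log2(CPM + 0.5), which understates the change of low genes such as Egr1. The exact two-sided permutation test of 3 against 3 libraries gave p = 0.1, the smallest it can give. Against the Celsr3 mutants Egr1 was also higher (log2 fold change 0.97, SE 0.20, 95% CI 0.54 to 1.40, limma adjusted p = 0.00401), and the call was kept with each library left out. The Celsr3 mutants had a mean of 1.77 ± 0.0942 CPM, and all 3 lay above all 3 controls. That difference did not pass the test (log2 fold change 0.19, 95% CI -0.24 to 0.62, limma adjusted p = 1.00).

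Ier2, a short nuclear protein of the serum response, is encoded at chr8:84661331-84662852 on the minus strand. Ier2 measured 5.68, 6.21 and 5.02 CPM in the controls, 3.55, 3.61 and 3.89 CPM in the Fzd3 mutants, and 5.96, 6.08 and 6.35 CPM in the Celsr3 mutants. The Fzd3 mutants were the 3 lowest libraries and close to each other, and the Celsr3 mutants overlapped the controls at their upper end. Ier2 fell by 34.6% in the Fzd3 mutants, to 3.69 ± 0.183 CPM from 5.64 ± 0.597 CPM (log2 fold change -0.55, SE 0.11, 95% CI -0.78 to -0.32, limma adjusted p = 0.00297). Relative to the Celsr3 mutants it fell by 39.9% (log2 fold change -0.66, SE 0.11, 95% CI -0.90 to -0.43, limma adjusted p = 0.00112). Both calls were kept with each library left out, at limma adjusted p up to 0.0153 and 0.00655. Between Celsr3 mutants and controls the log2 fold change of Ier2 was 0.12 (95% CI -0.12 to 0.35, limma adjusted p = 1.00). It ran from 0.04 to 0.18 with 1 library left out.

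Jun, the AP-1 subunit activated by JNK kinases, is encoded at chr4:95049034-95052222 on the minus strand. Jun measured 43.4, 45.2 and 39.7 CPM in the controls, 55.9, 53.0 and 44.3 CPM in the Fzd3 mutants, and 55.4, 66.5 and 61.2 CPM in the Celsr3 mutants. All Celsr3 mutants were above all controls, while Fzd3 replicate 3 lay within the range of the controls and Fzd3 replicate 1 above Celsr3 replicate 1. The mean of the Celsr3 mutants, 61.1 ± 5.60 CPM, was 42.7% above that of the controls, 42.8 ± 2.79 CPM. The log2 fold change was 0.51 (SE 0.09, 95% CI 0.31 to 0.71), and with limma adjusted p = 0.0545 it missed the threshold of 0.05. Jun passed it without Celsr3 replicate 1 (limma adjusted p = 0.0423), without Fzd3 replicate 3, which enters the shared estimate of the spread (0.0125), in a fit of only these 2 genotypes (0.0364), and with all libraries rescaled to equal totals (0.0481). In the other 15 of 19 alternative fits it missed it, for example without Celsr3 replicate 4 (limma adjusted p = 0.176) or 2 (0.216), without Control replicate 1 (0.171) or 3 (0.176), with moderation that uses no trend (0.196), with a replicate block (0.28) and with no moderation (0.521).

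In the Fzd3 mutants Jun had a mean of 51.0 ± 6.04 CPM, and the log2 fold change against the controls was 0.25 (SE 0.09, 95% CI 0.05 to 0.45, limma adjusted p = 0.0633). Without Fzd3 replicate 3 it was 0.35 and passed (limma adjusted p = 0.0104), as it did with a replicate block (0.0407), and in the other 17 of 19 alternative fits it missed the threshold. Between the mutants Jun gave a log2 fold change of -0.26 (95% CI -0.46 to -0.06, limma adjusted p = 0.0532). That difference passed the threshold without Control replicate 3 (limma adjusted p = 0.0499), Fzd3 replicate 1 (0.0399) or Celsr3 replicate 1 (0.0308), and missed it in the other 16 of 19. With 1 library left out it was smallest, at -0.16, without Fzd3 replicate 3 (limma adjusted p = 0.165). A gene that is not in the table, Junos, overlaps Jun on the opposite strand, and since the use of strand is not stated, reads of the 2 cannot be told apart.

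Junb, an AP-1 subunit related to Jun, is encoded at chr8:84974484-84978718 on the minus strand, where it overlaps the annotation of Prdx2, a listed gene, on the plus strand. Reads of these 2 cannot be told apart where they overlap, which limits the Junb values and their place among the levels. Junb measured 0.963, 0.903 and 1.33 CPM in the controls, 1.28, 1.19 and 1.18 CPM in the Fzd3 mutants, and 1.14, 1.11 and 1.25 CPM in the Celsr3 mutants. The controls held both the lowest and the highest value, so the genotypes overlapped. Neither mutant differed from the controls beyond the spread, with log2 fold changes of 0.14 (95% CI -0.19 to 0.48, limma adjusted p = 0.518) for Fzd3 and 0.10 (95% CI -0.24 to 0.43, limma adjusted p = 1.00) for Celsr3. The intervals leave room for differences of either sign. With 1 library left out the log2 fold change of Junb ran from 0.07 to 0.26 for Fzd3 and from 0.02 to 0.22 for Celsr3.

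Nr4a1, an orphan nuclear receptor induced through CREB and MEF2 in many cells, is encoded at chr15:101254269-101274795 on the plus strand. Nr4a1 measured 3.27, 4.29 and 3.66 CPM in the controls, 4.53, 4.13 and 3.44 CPM in the Fzd3 mutants, and 3.74, 3.59 and 4.16 CPM in the Celsr3 mutants. High and low libraries occurred in every genotype. The log2 fold change was 0.09 in the Fzd3 mutants (95% CI -0.20 to 0.39, limma adjusted p = 0.633) and 0.03 in the Celsr3 mutants (95% CI -0.26 to 0.33, limma adjusted p = 1.00). Without Celsr3 replicate 4 the latter value was -0.02. With 1 library left out the value in the Fzd3 mutants ran from 0.01 to 0.19.

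Promoter windows of the RefSeq annotation (GRCm38.p6, from 250 bases before the start to 50 after it) were given for 6 of the 10 genes, Fos, Fosb, Jun, Junb, Nr4a1 and Btg1, and not for Egr1, Egr3, Ier2 and Arc. They were searched on both strands for motifs of the factors named above and for the TATA motif. Of these windows 2 are printed here because Btg1 was called in the Fzd3 mutants (values given with Btg1) and Nr4a1 was not. Only the 250 bases before the start are printed. For Nr4a1 this is chr15:101266596-101266845 on the plus strand, with the CREB half-site CGTCA and the reverse complement of the EGR motif GCGNGGGCG in capitals.
Nr4a1: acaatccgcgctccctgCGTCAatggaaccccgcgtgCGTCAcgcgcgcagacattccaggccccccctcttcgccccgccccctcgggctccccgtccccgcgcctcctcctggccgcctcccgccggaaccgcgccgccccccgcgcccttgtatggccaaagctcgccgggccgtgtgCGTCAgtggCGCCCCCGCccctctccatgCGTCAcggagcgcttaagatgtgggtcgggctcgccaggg
For Btg1 it is chr10:96616751-96617000 on the plus strand, with CGTCA and the TATA motif TATAAA in capitals.
Btg1: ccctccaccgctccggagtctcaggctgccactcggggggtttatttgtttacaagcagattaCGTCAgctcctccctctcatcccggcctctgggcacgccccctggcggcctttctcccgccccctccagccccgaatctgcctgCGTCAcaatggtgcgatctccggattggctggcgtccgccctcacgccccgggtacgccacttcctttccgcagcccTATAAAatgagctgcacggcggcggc

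The Nr4a1 window held CGTCA 4 times, at 233, 213, 69 and 40 bases before the start, and the EGR motif 1 time, at 60 bases before it. The Btg1 window held CGTCA 2 times, at 187 and 103 bases, and TATAAA at 26 bases before the start. CGTCA was found in 5 of the 6 windows (all but that of Jun) and in 20.8% of all 32851 windows. GCGNGGGCG was found in 2 of the 6 (Fosb and Nr4a1) and in 5.55% of all, and TATAAA in 3 of the 6 (Fos, Junb and Btg1) and in 13.6% of all. The full CREB site TGACGTCA, which contains CGTCA, the AP-1 site TGANTCA and the CArG box bound by SRF were found in 0 of the 6 windows, against 1.79%, 7.81% and 1.63% of all windows. A match is a description of the letters in these windows and not a measured binding site.

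Arc, a synaptic protein that regulates the uptake of glutamate receptors, is encoded at chr15:74669083-74672570 on the minus strand. Arc measured 1.29, 1.67 and 1.33 CPM in the controls, 0.906, 0.907 and 0.859 CPM in the Fzd3 mutants, and 0.818, 0.816 and 1.07 CPM in the Celsr3 mutants. Both mutants were below the controls in every library, with Celsr3 replicate 4 the closest to them. The counting interval of Control replicate 2 (1.37 to 2.03 CPM) was above those of all 6 mutants, and those of Control replicates 1 (1.00 to 1.64) and 3 (0.996 to 1.74) overlapped all 6. The mean of Arc was 37.8% lower in the Fzd3 mutants, at 0.891 ± 0.0274 CPM beside 1.43 ± 0.212 CPM (log2 fold change -0.47, SE 0.15, 95% CI -0.80 to -0.13, limma adjusted p = 0.0388). Since its listing leaned on the controls, this p cannot be read at face value.

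The Arc call in the Fzd3 mutants was lost when Control replicate 1 (limma adjusted p = 0.0568), 2 (0.14) or 3 (0.0552), Fzd3 replicate 1 (0.087), 2 (0.0861) or 3 (0.0799), or Celsr3 replicate 2 (0.051) was left out. It was also lost in a fit of only these 2 genotypes (limma adjusted p = 0.0549) and with a replicate block (0.0729). The log2 fold change of Arc in these fits ran from -0.38 without Control replicate 2 to -0.52 without Control replicate 1. In the Celsr3 mutants the mean of Arc was 0.901 ± 0.145 CPM, and the log2 fold change was -0.46 (SE 0.15, 95% CI -0.80 to -0.13). It did not pass the test over all genes (limma adjusted p = 0.68), nor without Celsr3 replicate 4, where it was -0.55 (limma adjusted p = 0.666). The 2 mutants share their controls, so a high value of Arc in a control enters both differences. Between the mutants the log2 fold change was -0.01 (95% CI -0.34 to 0.33, limma adjusted p = 0.981).

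Btg1, an antiproliferative protein that recruits the CCR4-NOT deadenylase, is encoded at chr10:96617006-96622809 on the plus strand. Btg1 measured 90.9, 93.1 and 80.3 CPM in the controls, 79.3, 74.5 and 78.8 CPM in the Fzd3 mutants, and 85.1, 86.0 and 89.1 CPM in the Celsr3 mutants. The Fzd3 mutants were the 3 lowest libraries, but Fzd3 replicate 1 was only just below Control replicate 3. Btg1 fell by 12% in the Fzd3 mutants, to 77.5 ± 2.61 CPM from 88.1 ± 6.86 CPM (log2 fold change -0.18, SE 0.06, 95% CI -0.31 to -0.06, limma adjusted p = 0.0342).

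This Btg1 call was lost without Control replicate 1 (limma adjusted p = 0.109), Control replicate 2 (0.126), Fzd3 replicate 1 (0.0618) or Fzd3 replicate 2 (0.12). It was also lost in a fit of only these 2 genotypes (limma adjusted p = 0.0592), with a replicate block (0.0662), with moderation that uses no trend (0.07) and in a linear model with no moderation (0.082). The log2 fold change of Btg1 in these fits ran from -0.14 without Control replicate 2 to -0.20 without Fzd3 replicate 1. Against the Celsr3 mutants the log2 fold change of Btg1 was -0.16 (95% CI -0.29 to -0.04, limma adjusted p = 0.0539), with no overlap between the groups, as for 44.9% of all genes. It passed the threshold without Control replicate 2 (limma adjusted p = 0.0442) or 3 (0.0174) and in a fit of only the 2 mutants (0.0242), and missed it in the other 16 of 19 alternative fits. In the Celsr3 mutants Btg1 had a mean of 86.7 ± 2.11 CPM and a log2 fold change against the controls of -0.02 (95% CI -0.15 to 0.11, limma adjusted p = 1.00).

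**Figure D2:**
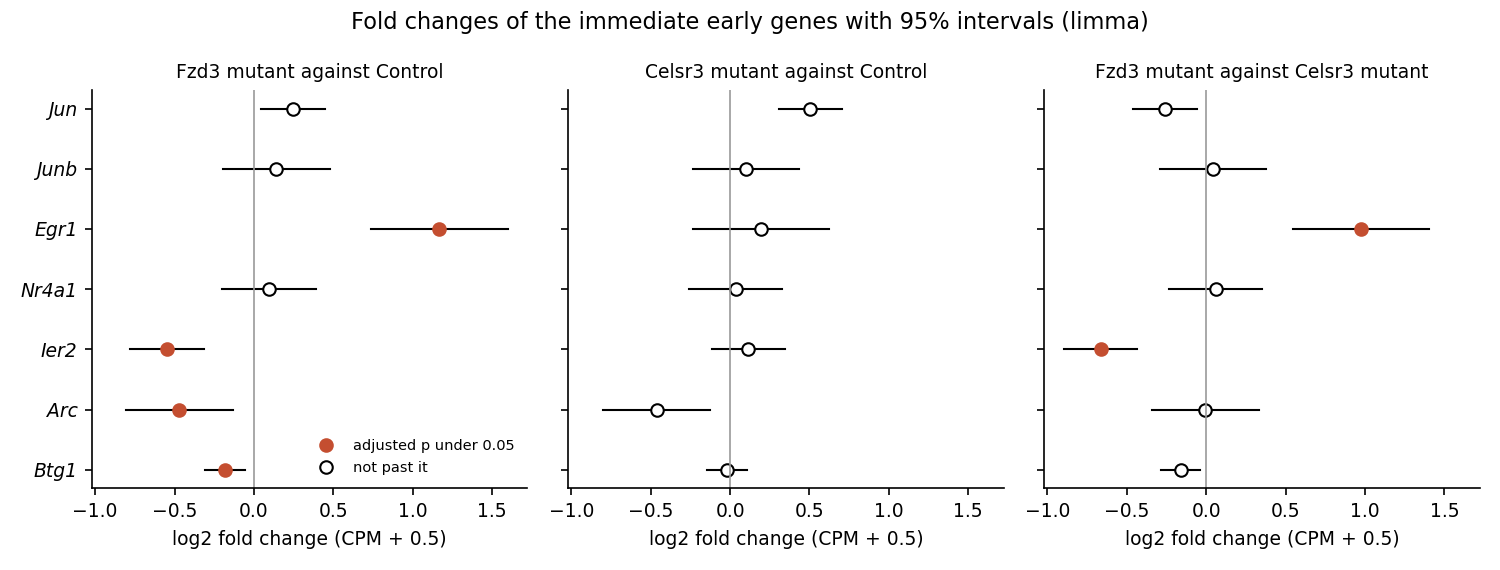
Fold changes on the log2(CPM + 0.5) scale (horizontal axis) of the 7 genes in 3 comparisons, with 95% confidence intervals from limma as lines and filled points where the adjusted p is under 0.05. Egr1 lies at 1.17 and Ier2 at -0.55 in the Fzd3 mutants against the controls, and Jun at 0.51 in the Celsr3 mutants without passing the threshold.

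Taking the genes by comparison, and with Arc set aside (a choice made after seeing the data), 3 of 6 passed the threshold between Fzd3 mutants and controls, where 29.8% of all 14670 genes did (4366 genes, 2199 higher and 2167 lower). Egr1 was higher and Ier2 and Btg1 were lower in the Fzd3 mutants, and with Arc it was 4 of 7. These 4 were also the genes without overlap between the 2 groups, as were 43.8% of all genes. The median log2 fold change of the 6 genes was 0.12, between -0.55 for Ier2 and 1.17 for Egr1, and that of all genes was 0.00. The median absolute value was 0.21 for the 6 genes and 0.14 for all genes. With 1 library left out, between 2 and 4 of the 7 were called, Arc included, and the number was 2 without Control replicate 1 or 2 or Fzd3 replicate 1 or 2. Egr1 and Ier2 were the 2 that passed in every fit with 1 library left out.

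Between Celsr3 mutants and controls 0 of the 7 genes passed the limma test, where 0.307% of all genes did (45 genes). At an unadjusted p under 0.05 there were Jun, 1 of 6 with Arc set aside, and 800 of all genes (5.45%). The median absolute log2 fold change was 0.11 for the 6 genes and 0.06 for all genes. Without Celsr3 replicate 4 the count of the 7 was again 0, and it was 1, Jun, without Fzd3 replicate 3 or Celsr3 replicate 1. Jun and Egr1, and Arc, had 3 Celsr3 mutants that did not overlap the 3 controls, with exact permutation p = 0.1 each, and 10.4% of all genes (1527) had no overlap either.

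Between the mutants 2 of the 7 genes passed, Egr1 higher and Ier2 lower in the Fzd3 mutants, where 29.6% of all genes did (4346 genes, 2247 higher and 2099 lower). The count ranged from 2 to 4 with 1 library left out. It was 3 without Control replicate 2, Fzd3 replicate 1 or Celsr3 replicate 1, and 4 without Control replicate 3, through the added calls of Btg1 or Jun given above. The labels tie no library to an animal, while the methods give 3 samples per genotype and a general minimum of 3 animals per experiment.

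**Figure D3:**
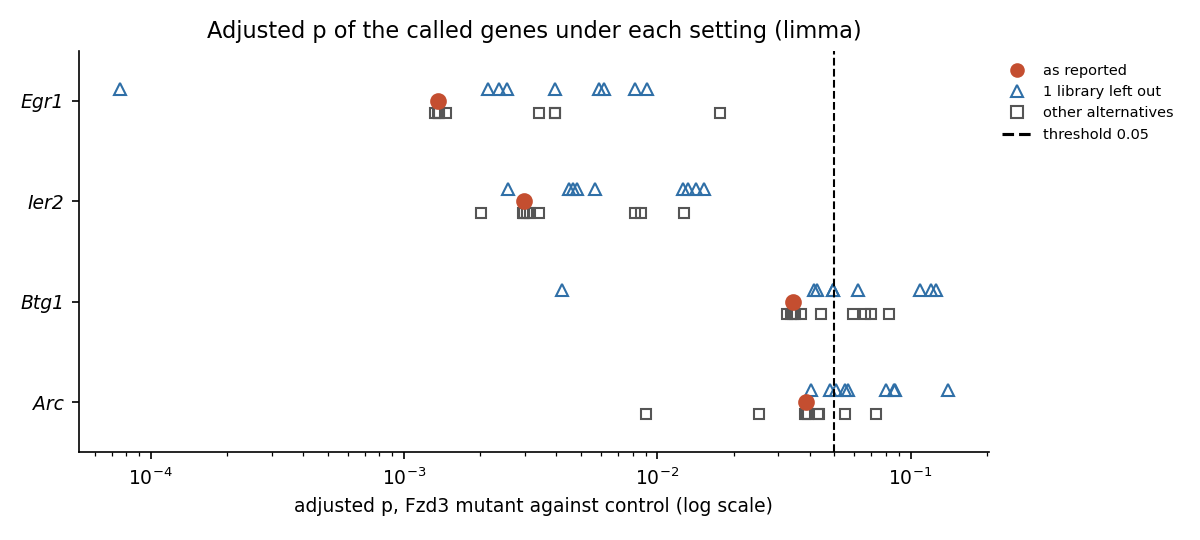
Adjusted p from limma (horizontal axis, log scale) of the 4 genes called in the Fzd3 mutants against the controls, as reported (circles), with 1 library left out (triangles) and under the other alternatives (squares), with the threshold of 0.05 as a dashed line. Egr1 and Ier2 stay left of the line throughout, while Btg1 reaches 0.126 and Arc 0.14.

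Levels between genes were compared as CPM per kilobase of annotated exon. In the controls the order was Btg1 (16.7), Jun (13.4), Ier2 (3.70), Nr4a1 (1.07), Arc (0.468), Junb (0.463) and Egr1 (0.331). Only Arc and Junb, neighbours in that order, overlapped between libraries. In the Fzd3 mutants Egr1 came before Junb and Arc, at 0.915 CPM per kilobase, and its libraries overlapped those of Nr4a1 (1.15). Jun (16.0) and Btg1 (14.7) also overlapped there, and Arc was last (0.291). In the Celsr3 mutants Jun (19.1) was above Btg1 (16.4) with no overlap, followed by Ier2 (4.03), Nr4a1 (1.09), Junb (0.506), Egr1 (0.395) and Arc (0.295), and no neighbours overlapped.

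The 7 genes also differed in how much they varied among libraries of a genotype. The pooled coefficient of variation was 18.8% for Egr1, 13.3% for Junb, 12.7% for Arc, 12.01% for Nr4a1, 9.43% for Jun, 7.01% for Ier2 and 5.09% for Btg1, and the median of all genes was 7.05%. Among genes with a mean within 0.8 to 1.2 times its own, the median was above the gene's own value for Junb (23.5%), Arc (24.5%), Nr4a1 (13.9%) and Ier2 (12.45%), and below it for Egr1 (17.1%), Jun (5.11%) and Btg1 (4.48%). Most of the variation of Egr1 came from the Fzd3 mutants, where the highest library was 1.91 times the lowest.

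Libraries of a genotype ranked differently from gene to gene. Fzd3 replicate 3 was the lowest of its genotype for 5 of the 7 genes (Jun, Junb, Egr1, Nr4a1 and Arc) and the highest for Ier2. Control replicate 2 was the highest of its genotype for 5 (Jun, Nr4a1, Ier2, Arc and Btg1). Celsr3 replicate 4 was the highest for 5 (Junb, Nr4a1, Ier2, Arc and Btg1) and the lowest for 0.

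Other genes of the same response were taken from lists set by name, and the share called in each list is given beside the 29.8% of all genes called in the Fzd3 mutants. Of 20 further immediate early transcription factors 16 were listed, and 6 rose and 1 fell in the Fzd3 mutants (43.8% called, median log2 fold change 0.07). Nr4a2, a relative of Nr4a1 with a role in neuron identity, measured 52.2, 53.7 and 54.3 CPM in the controls and 86.0, 89.0 and 80.6 CPM in the Fzd3 mutants. Its log2 fold change was 0.67 (limma adjusted p = 7.30e-05). Nr4a3, the other relative, had a log2 fold change of 0.34 (limma adjusted p = 0.0107), a call lost in a model with no moderation (adjusted p = 0.0584). Myc rose from 14.9, 10.8 and 13.7 CPM to 30.6, 30.6 and 27.1 CPM (log2 fold change 1.15, limma adjusted p = 7.41e-05). Ier5, which shares its amino-terminal region with Ier2 and is the most abundant of this list, measured 87.0, 95.4 and 70.1 CPM in the controls and 52.1, 54.0 and 60.5 CPM in the Fzd3 mutants. Like Ier2 it fell there (log2 fold change -0.59, limma adjusted p = 0.00284).

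Of 32 immediate early effectors and feedback genes 29 were listed, and 6 rose and 5 fell in the Fzd3 mutants (37.9% called, median log2 fold change 0.04). Among them Sertad1 was above 1 CPM in only 3 libraries, all of them mutants. With Sertad1 set aside (after seeing the data) 11 of 28 were called (39.3%). Btg2, the closest relative of Btg1 and also a marker of neurogenic progenitors, measured 30.9, 33.0 and 27.4 CPM in the controls and 17.3, 17.1 and 19.0 CPM in the Fzd3 mutants. Its log2 fold change was -0.76 (limma adjusted p = 0.00013). The kinase gene Sgk1 rose (log2 fold change 1.03, limma adjusted p = 0.000144). Of 14 activity-regulated genes of the later wave 10 were listed. Pcsk1 was above 1 CPM only in the 3 Fzd3 mutants and Celsr3 replicate 1, so it was set aside like Arc (after seeing the data), and of the other 9, 5 rose and 0 fell (55.6% called, median log2 fold change 0.68). An unadjusted limma p under 0.05 was found for 7 of these 9 and for 41.4% of all genes. With Pcsk1 it was 6 of 10 called. Syt4, a synaptotagmin and the most abundant of them, measured 233, 194 and 274 CPM in the controls and 584, 554 and 518 CPM in the Fzd3 mutants. Its log2 fold change was 1.25 (limma adjusted p = 6.92e-05). Scg2 rose by 1.02 on the log2 scale (limma adjusted p = 0.0419), a call lost without Control replicate 1 (0.0932) or 2 (0.154) or Fzd3 replicate 1 (0.148) or 2 (0.121), with moderation that uses no trend (0.0825) and with no moderation (0.152). The log2 fold change of Scg2 in these fits ran from 0.71 without Control replicate 2 to 1.02 without Control replicate 1.

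Of 24 genes of the ERK, SRF and CREB pathways 24 were listed, and 5 rose and 1 fell (25.0% called, below the share of all genes, median 0.05), with Mef2c, a transcription factor of projection neurons, at a log2 fold change of 0.70 (limma adjusted p = 6.45e-05). Of 18 JNK genes and AP-1 partners 14 were listed, and 6 rose and 1 fell (7 of 14 called, median 0.07), with Maf at 0.50 (limma adjusted p = 0.00335). Against the Celsr3 mutants these 5 lists gave 5 higher and 3 lower, 7 and 6, 6 and 0, 5 and 1, and 7 and 1, in the same order (8 of 16, 13 of 29, 6 of 9 with Pcsk1 set aside, 6 of 24 and 8 of 14 called, and 29.6% of all genes). In the Celsr3 mutants against the controls limma called 0 genes in each of the 5 lists. An unadjusted limma p under 0.05 was found for 4 of 16, 4 of 29, 2 of 9 with Pcsk1 set aside, 2 of 24 and 0 of 14. Of all genes 5.45% had such a p.

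**Figure D4:**
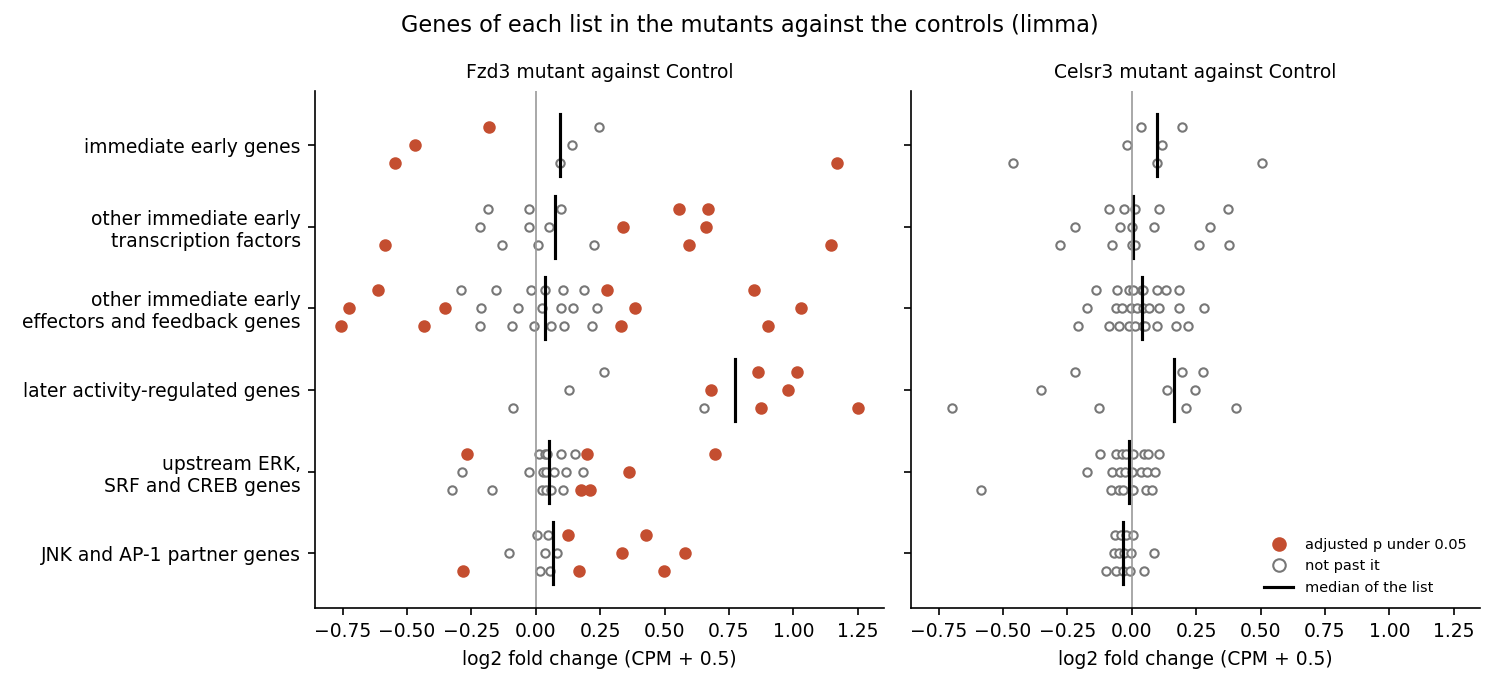
Log2 fold changes on the log2(CPM + 0.5) scale (horizontal axis) of the listed genes of 6 lists in each mutant against the controls, with filled points where limma's adjusted p is under 0.05 and a bar at the median of each list. The median is 0.09 for the 7 immediate early genes, Arc included, and 0.77 for the later activity-regulated genes, Pcsk1 included, in the Fzd3 mutants.

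Markers of other cell types were compared in the same way, beside the 29.8% of all genes called in the Fzd3 mutants. Beside the higher Egr1, all 7 endothelial markers were listed and 3 rose (42.9%), with a summed level of 102, 104 and 107 CPM in the controls, 155, 145 and 135 CPM in the Fzd3 mutants, and 112, 97.9 and 146 CPM in the Celsr3 mutants. Their most abundant gene was Kdr, and no marker was at 0. Of 7 microglial markers 2 rose (28.6%, near the share of all genes), with sums of 35.2, 40.8 and 39.1 CPM in the controls, 60.7, 56.5 and 41.9 CPM in the Fzd3 mutants, and 39.3, 41.3 and 49.6 CPM in the Celsr3 mutants, and with Csf1r the most abundant and none at 0. Fzd3 replicate 3, the lowest of its genotype for Egr1, was also the lowest of it in both sums. Its sums were the lowest as well for mural cells and meninges, red blood cells, interneurons, striatum and apical progenitors. For basal progenitors, projection neurons, thalamus and heat shock genes they were the highest of the genotype. In Celsr3 replicate 4 the endothelial sum was near those of the Fzd3 mutants while Egr1 was 1.79 CPM.

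Beside the lower Ier2 and Btg1, all 5 basal progenitor markers fell in the Fzd3 mutants, Btg2 among them, with sums of 391, 415 and 346 CPM in the controls, 220, 240 and 275 CPM in the Fzd3 mutants, and 381, 434 and 440 CPM in the Celsr3 mutants. Of 9 apical progenitor markers 7 fell (77.8%), with sums of 1417, 1471 and 1435 CPM in the controls, 1085, 1148 and 1037 CPM in the Fzd3 mutants, and 1289, 1326 and 1410 CPM in the Celsr3 mutants. Eomes and Fabp7 were the most abundant genes of these 2 lists, and no marker was at 0. Of 7 listed markers of cortical projection neurons 6 also fell and 1 rose, and their sums overlapped between Fzd3 mutants and controls. Fzd3 replicate 3 was the highest of its genotype for Ier2 and for the basal progenitor sum, and the lowest of it for the apical progenitor sum. The part of these cell types in the levels of Egr1, Ier2 and Btg1 was not tested, and in whole cortex fewer cells of a type and less RNA per cell cannot be told apart.

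**Figure D5:**
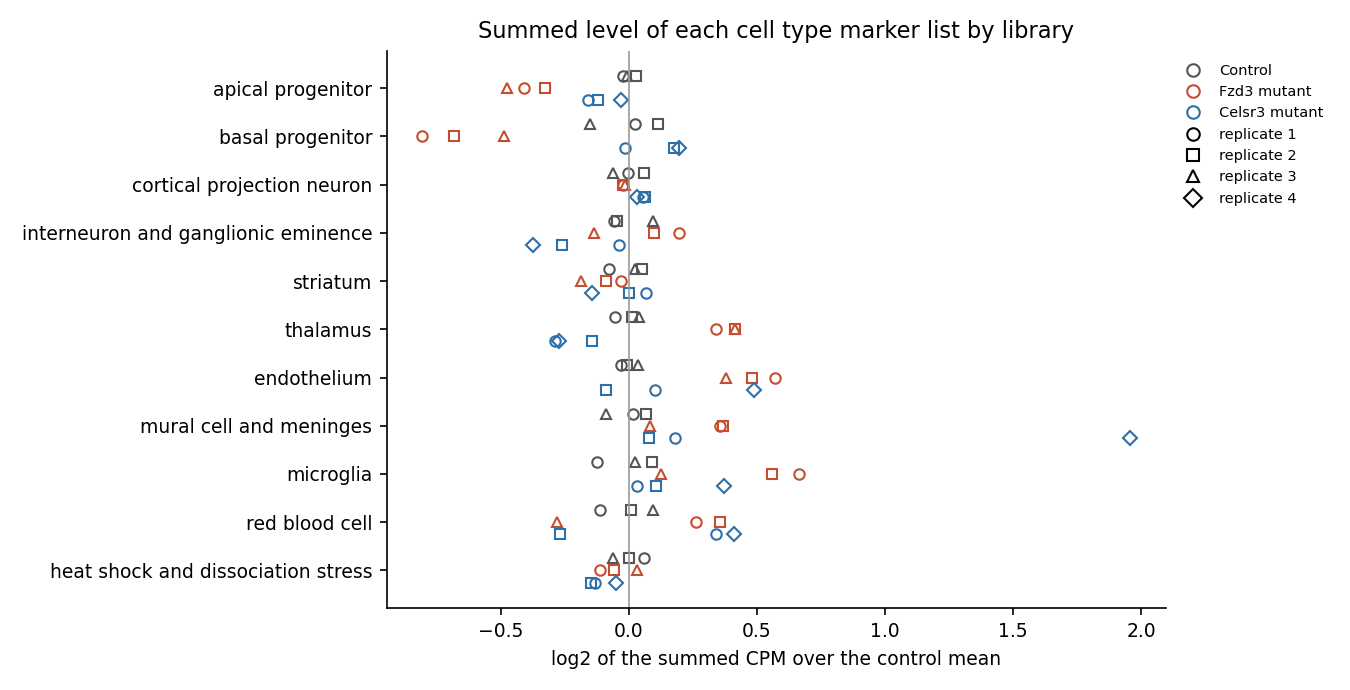
Summed CPM of each marker list in every library, as log2 of its ratio to the mean of the controls (horizontal axis), with colours for the genotype and shapes for the replicate number. The mural cell and meninges list of Celsr3 replicate 4, at 238 CPM, stands apart from the other 8 libraries.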

How the data were processed

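RNA of 9 cortex libraries, 3 per genotype by the labels, was sequenced by a service company. The authors deposited CPM values per gene, whose totals differ slightly from library to library. The submitters' processing notes name FastQC, TopHat, TopHat2, Bowtie, Cufflinks 2.1.1, edgeR 2.12 and the builds GRCm38 and GRCh37, with no role. Counting and use of strand are not given in the sources used here. The number of columns left unused was 0.

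The step of the lowest values in each library gave the CPM of 1 read, and 100% of values were whole numbers of reads within 0.1. The check of units, which needs more low values than these columns hold, did not accept the reads as recovered, so reads, depths and Poisson intervals rest on this step alone. Depth was 39857305 to 69600589 reads per library, and Poisson intervals at 95% cover counting error only. Positions and exon lengths came from the GENCODE annotation of GRCm38, and promoter windows from RefSeq.

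Differences were computed across all genes with limma 3.58.1 in R 4.3.3 (lmFit, then eBayes with its trend option) after adding 0.5 CPM and taking log2, in 1 fit of 9 libraries without covariates. The filter was a mean of 0.5 CPM or more, which all 14670 genes passed. P-values were adjusted over all genes by Benjamini-Hochberg with a threshold of 0.05. Exact permutation tests used scipy 1.17.1, and the rest Python 3.11.15, numpy 2.4.6, pandas 2.3.3 and matplotlib 3.10.9. The fit was tested on simulated data.

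The members and lists were chosen with earlier results of these data known. Genes named were the listed members, the mutated genes, the most abundant gene of each list and, per pathway list and comparison, up to 5 called genes with the smallest adjusted p. Col3a1, Col1a2, Lhx9, Tcf7l2, Hsp90aa1, Hspa1a and Hspa1b were named after their values were seen. The genes of like mean level and the library ranks were also added after their values were seen. Genes of like pattern were the 10 highest by Pearson correlation with the mean of the members (log2 values, each gene standardized over the libraries), among genes of at least 1 CPM. Alternatives were other pseudocounts (0.1 and 1), filters (none and 5 CPM), scalings, moderation, a fit of only 2 genotypes, the replicate number as a block, and leaving out each library.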

Additional observations from a re-analysis of the deposited data

Results flagged for a closer look

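2 of the 7 genes (28.6%) had effects that differed between the mutants by limma's direct comparison of the 2, a share like the 29.6% of all genes, with both effects measured against the same 3 controls. With the replicate number as a block the count was again 2 of the 7, but only 2101 of all 14670 genes were called. For Egr1 the log2 fold change in the Fzd3 mutants (1.17) exceeded that in the Celsr3 mutants (0.19) by 0.97 (limma adjusted p = 0.00401). For Ier2 the Fzd3 mutants were at -0.55 and the Celsr3 mutants at 0.12, a difference of -0.66 (limma adjusted p = 0.00112). The libraries of the 2 mutants did not overlap for either gene, nor for 44.9% of all genes. No test for single libraries far from the others was run within the groups of 3.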

How the results depend on the processing

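Among the 7 genes in 3 comparisons, 163 of 189 values with 1 library left out kept their direction and side of the threshold, 11 lost the call, 8 gained it and 7 changed sign. Under the other alternatives these counts were 186 of 198, 6, 4 and 2. For 52 other named results they were 437 of 468 and 31 lost, and 490 of 513 and 23 lost. Egr1 and Ier2 passed in both Fzd3 comparisons under every alternative that tested them, and Egr1 was not tested with the 5 CPM filter, which kept Btg1, Jun and Ier2. With Arc not counted, chosen after seeing the data, the calls were 3, 0 and 2 in the 3 comparisons, in place of 4, 0 and 2. Likewise the Fzd3 calls were 5 in place of 6 for the later activity-regulated genes without Pcsk1, and 0 in place of 1 for red blood cell markers without Hbb-y. Pseudocounts and median-of-ratios scaling changed no call of the 7. All 14670 genes passed the filter, so the fit with no filter repeated the fit as reported and could not differ from it. It is counted among the alternatives here and above. Against the controls, 2 of the 7 were called in the Fzd3 mutants with the 5 CPM filter (fewer genes tested) and 2 with only the 2 genotypes compared (fewer samples). In the Celsr3 mutants 1 was called with rescaling to equal totals and 1 with only 2 genotypes, and between the mutants 1 with the 5 CPM filter and 3 with only 2 genotypes. With no moderation 24 genes were called in the Celsr3 mutants, in place of 45. With 1 library left out, the 7 gave 2 to 4 calls in the Fzd3 mutants, 0 to 1 in the Celsr3 mutants and 2 to 4 between the mutants. Values that changed sign ran, against the controls in the Celsr3 mutants, from -0.046 to 0.125 for Nr4a1 and from -0.085 to 0.022 for Btg1, and between the mutants from -0.019 to 0.158 for Nr4a1 and from -0.048 to 0.078 for Arc. The cause was not tested.

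Whether the replicate numbers pair the libraries is not stated and was not tested. Deviations of same-numbered libraries correlated at -0.07, -0.15 and -0.20 (Fzd3 and control), 0.07 and -0.01 (Celsr3 and control) and 0.19 and -0.08 (the mutants). Those of libraries with different numbers ran from -0.16 to 0.19. With the replicate number as a block, 3629, 29 and 2101 genes were called in the 3 comparisons. Under this block Jun passed in the Fzd3 mutants (limma adjusted p = 0.0407), while Arc (0.0729), Btg1 (0.0662) and, in the Celsr3 mutants, the Celsr3 gene (0.0699) did not, and log2 fold changes turned to -0.073 for Nr4a1 in the Celsr3 mutants and to 0.104 for Arc between the mutants. The edgeR test on whole reads was not run: the check of units did not accept the reads as recovered, since the columns hold too few low values. The rank of level by CPM and per kilobase was the same for 4 of the 7 genes in the controls, 3 in the Fzd3 mutants and 3 in the Celsr3 mutants. Arc and Junb had the fewest reads, at most 102 and 88 in a library.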

Other observations

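Genes whose pattern was most like the mean of the standardized log2 values of the 7 immediate early genes were sought among 14375 other genes, as a description over 9 libraries that share their genotypes. Over the 9 libraries the highest Pearson correlations were those of Ftl2 (0.909), Zdhhc18 (0.907) and BC024978 (0.895), followed by Cpt2, Alkbh2, Iqck, Fam114a1, Psmb6, Klc3 and Plec (0.869). After subtracting the mean of each genotype they were those of Rps16-ps2 (0.983), Hyal1 (0.979) and Ndufa13 (0.975), followed by Trerf1, Zyx, Trem2, Gm7866, A330033J07Rik, Litaf and Aatk (0.948).

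Further marker lists gave these counts in the Fzd3 mutants against the controls, where 29.8% of all genes were called. Of 7 listed markers of cortical projection neurons 1 rose and 6 fell, with Neurod6, the most abundant, at a log2 fold change of -0.22 (limma adjusted p = 0.00151). Of 5 thalamic markers 1 rose and 2 fell. Prox1, the most abundant, rose (log2 fold change 0.99, limma adjusted p = 0.00041). Lhx9 (-0.68, limma adjusted p = 0.0212) and Tcf7l2 (-0.51, limma adjusted p = 0.0484) fell. Of 4 striatal markers 1 fell (25.0%) and of 8 heat shock genes 1 fell (12.5%), both under the share of all genes. Of 6 red blood cell markers 1 fell, Hbb-y, which was above 1 CPM in only 3 libraries, none of them Fzd3 mutants, and with it set aside (after seeing the data) limma called 0 of 5, with 0 at an unadjusted p under 0.05. Of 7 markers of interneurons and the ganglionic eminence, and of 7 markers of mural cells and meninges, limma called 0, with 0 and 2 at an unadjusted p under 0.05. Of 5 choroid plexus markers 0 were listed. In the Celsr3 mutants limma called 0 genes in each of these lists, with 3 projection neuron markers and at most 2 in the others at an unadjusted p under 0.05. The heat shock sum was 4305, 4130 and 3954 CPM in the controls, 3817, 3968 and 4221 CPM in the Fzd3 mutants, and 3765, 3727 and 3993 CPM in the Celsr3 mutants, and the genotypes overlapped. Hspa8, at a mean of 2226 CPM, and Hsp90aa1, at 1130 CPM, made up most of this sum. A change in low genes such as Hspa1a (1.69 CPM) and Hspa1b (2.14 CPM) would not show in it. Stress at dissection was not tested.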
